A study of Mus musculus with 5 samples.

Results

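The Th9 cells made with IL-4 and IL-1β, and the Th1 cells made with IL-12, were compared here gene by gene on 1 array each. The members are the transcript clusters (groups of probes for 1 transcript or gene) to which the platform annotation gives 1 gene symbol, 23525 of the 41345 on the array, and the value is the log2 level in Th9(IL4+IL-1b) cells less that in Th1 cells. They cover 22184 genes. Arrays were made of 5 T helper cultures, and the question for this pair is what these effector-like cultures shared and where they parted.

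The starting cells of every culture were naive splenic CD4+ CD62L+ T cells from TRP-1 mice, which carry a transgenic T cell receptor for TRP-1, a protein of melanocytes. For animal experiments the mice were 6 to 8 weeks old and of either sex, and no other age is stated for the donors of the cultured cells. The strain's name also lists a *Rag1* mutation and the *Tyrp1* B-w allele, which all 5 cultures would share. The cells were kept for 3 days with irradiated C57BL/6 spleen cells that had been depleted of T cells, as antigen-presenting cells, and with the TRP-1 peptide at 5 µg/ml. For Th1 cells the medium held IL-12 (5 ng/ml), IL-2 (100 U/ml) and anti-IL-4 antibody (10 µg/ml). The Th9(IL4+IL-1b) medium held IL-4 and IL-1β (10 ng/ml each) and anti-IFN-γ antibody (10 µg/ml). IL-4, IL-1β, IL-12, IL-2 and both antibodies therefore differed at once between the arrays compared, and their parts cannot be told apart. The other 3 arrays were Th2 (IL-4 at 10 ng/ml, IL-2 at 100 U/ml, the IFN-γ antibody), Th9(IL4+TGFb) (called classic Th9 here, IL-4 at 10 ng/ml, TGF-β at 1 ng/ml, the IFN-γ antibody) and Th9(IL4+TGF-b+IL-1b) (the same with IL-1β at 10 ng/ml), and they serve here as reference points. With 1 array per condition there is no replicate error, no test and no p-value, and each difference below is a difference between arrays. The sources used here describe no purification of the T cells from the feeder cells at the end of culture.

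T helper cells take on different programs according to the cytokines present when they are first stimulated. IL-12 acts through STAT4 and leads to T-bet, encoded by *Tbx21*, and to IFN-γ, which in turn acts on interferon-stimulated genes such as those for guanylate-binding proteins and CXC chemokines. IL-4 acts through STAT6 and leads to GATA3 and the type 2 cytokines, and Th9 cells are named for IL-9. IL-1β signals through MyD88 to NF-κB. Both Th1 cells and Th9 cells made with IL-1β have been studied as effector cells against tumors.

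Values are log2 after RMA, so a difference of 1 is 2-fold, and values of different genes are not compared because probes differ in brightness. The median over all transcript clusters lay between 5.41 and 5.44 in the 5 arrays. The 1109 transcripts of olfactory receptors, which T cells are not known to use, served as the measure of dim signal. Their 95th percentile was 5.39 in the Th1 and 5.32 in the Th9(IL4+IL-1b) array, and the SD of their differences was 0.299. Where a gene lay at or below that percentile in the dimmer array, its fold is given as "at least", counted from that percentile. Counts use the values as measured, and where a count changes with dim values taken at that percentile, that count follows it. Genes with near-identical relatives (*Ly6*, granzyme, GBP and *Ifit* families) can share probes, which makes their single values less certain.

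The T cell identity genes marked both cultures as T helper cells. *Cd3e*, a chain of the T cell receptor complex, was at 12.49 in Th1 and 12.43 in Th9(IL4+IL-1b) cells, and *Cd4* at 12.07 and 11.91. Of 15 such genes, 14 differed by less than 2-fold, with a list median of -0.25. The exception was *Trat1*, an adaptor of the T cell receptor, at 7.60 in Th1 and 10.42 in Th9(IL4+IL-1b) cells. Genes of other cells were also well above the olfactory range in both arrays. *Cd79a*, a part of the B cell receptor, was at 11.76 and 12.19, and the 11 matched B cell markers differed by -1.19 to 0.98 (median 0.13), with a summed level on the log2 scale of 13.55 in Th1 and 13.90 in Th9(IL4+IL-1b) cells. Plasma cell markers parted more, with 3 of 6 at least 2-fold higher in Th9(IL4+IL-1b) cells, among them *Jchain*, the joining chain of secreted antibodies, at 7.03 in Th1 and 9.63 in Th9(IL4+IL-1b) cells. The summed level of the 6 was 10.73 in Th1, 12.23 in Th9(IL4+IL-1b) and 11.07 to 12.09 in the other arrays. In this bulk RNA, fewer cells of a type and less RNA per cell cannot be told apart.

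Most genes did not part. Of the 23525 transcripts, 18156 (77.2%) lay within 25% of each other in the arrays and 21895 (93.1%) within 1.5-fold, and the median difference was -0.02. Of the same transcripts 13967 were above the olfactory range in 1 or both arrays. The rest were dim in both, so their closeness says little. At least 2-fold higher in Th9(IL4+IL-1b) cells were 299 transcripts (1.27% of those compared), and at least 2-fold lower were 186 (0.791%). Counted as genes, these were 289 of 22184 (1.30%) and 182 (0.820%). Centring each array on its 75th percentile moved the median difference to -0.13 and made the split even, with 241 transcripts higher and 240 lower. With dim values taken at the olfactory percentile, 247 and 159 transcripts were past 2-fold. At 16-fold there were 8 higher transcripts and 1 lower, the last being *Ifng*. Of the 30 immunoglobulin transcripts picked out by symbol 24 were among the 299 and none among the 186. These 24 differed by 1.03 to 2.30, and they were high beside *Jchain* and the other plasma cell markers. The immunoglobulin symbol *Igh-VS107* was missed by this pick, and its clusters were also higher, by 1.87 and 1.70. The part of these transcripts in the remaining differences was not tested. With the 30 and the listed B cell and plasma cell markers left out the counts were 272 and 185.

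**Figure D1:**
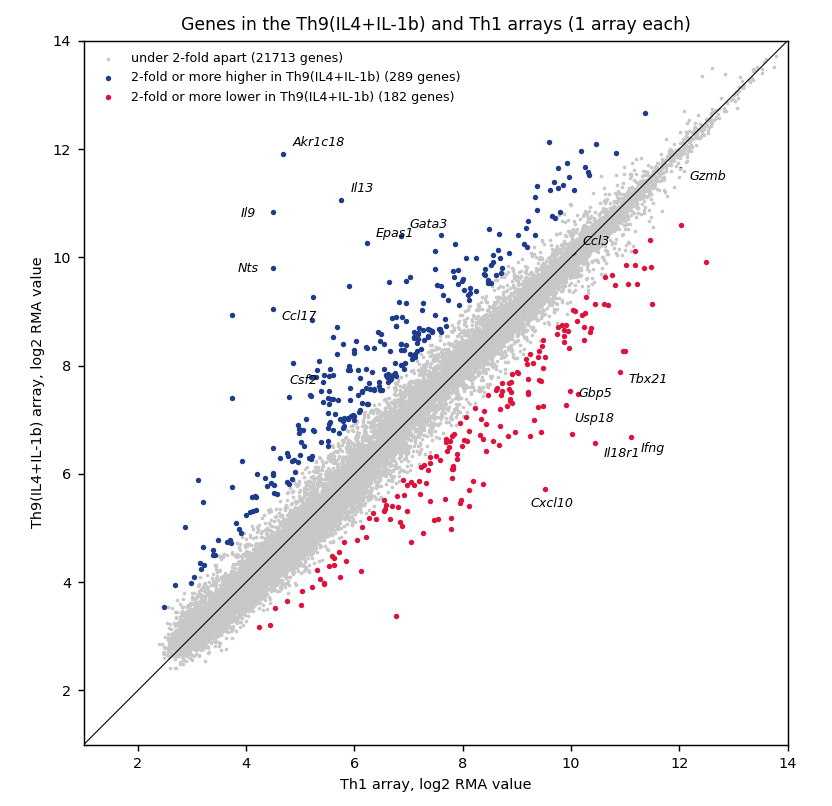
Each point is a gene, with its log2 RMA value in the Th1 array on the horizontal axis and in the Th9(IL4+IL-1b) array on the vertical axis; the line marks equal values. The 289 genes at least 2-fold higher in Th9(IL4+IL-1b) cells are blue and the 182 at least 2-fold lower are red, while 21713 genes lie closer to the line, among them *Ccl3* and *Gzmb*.

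The other 3 arrays show which member of the pair stood apart. Among the 186 transcripts lower in Th9(IL4+IL-1b) cells, the Th1 value lay more than 1.5-fold above the range of Th2 and both TGF-β cultures in 159, while the Th9(IL4+IL-1b) value was within 1.5-fold of that range in 176. Among the 299 higher transcripts the Th1 value lay more than 1.5-fold below that range in 182, and the Th9(IL4+IL-1b) value lay above it in 22. In these counts it was mostly the Th1 array that left the range of the cultures with IL-4. The Th1 medium was the only one without added IL-4 and with an antibody against it. It was also the only one with IL-12 and without the IFN-γ antibody, and these differences cannot be told apart.

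Cytokines were among the genes farthest apart, behind the enzyme gene *Akr1c18* on the Th9(IL4+IL-1b) side and first on the Th1 side. *Il9*, the signature cytokine of Th9 cells, was at 4.49 in Th1, 10.84 in Th9(IL4+IL-1b), 7.53 in Th2, 8.77 in classic Th9 and 12.11 in Th9(IL4+TGF-b+IL-1b) cells, which put Th9(IL4+IL-1b) at least 43.7-fold above Th1 cells. *Il13*, a type 2 cytokine, was at 5.76 in Th1, 11.07 in Th9(IL4+IL-1b), 8.11 in Th2, 6.37 in classic Th9 and 10.06 in Th9(IL4+TGF-b+IL-1b) cells, a 39.7-fold difference. *Il13* was thus highest in Th9(IL4+IL-1b) cells, and the arrays with IL-1β held the top values of both cytokines. *Ifng*, the signature cytokine of Th1 cells, was at 11.11 in Th1 and 6.68 in Th9(IL4+IL-1b) cells, with the other 3 arrays between 6.54 and 6.78. This 21.7-fold difference was the largest in its direction. The 4 other cultures, all without IL-12 and with the IFN-γ antibody, lay close together in *Ifng*.

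The promoters of 4 genes from the 20 at each end of the ranking are shown as examples. They were picked by hand because they differ in short motifs linked to interferon and NF-κB signaling. The contrast between them therefore comes from the choice, and the shares over all windows are given after them. Each run is the 250 bases before the RefSeq start (GRCm38.p6), read 5′ to 3′ on the strand of the gene. Capitals mark the interferon-stimulated response element core GAAANNGAA, the gamma-activated site TTCNNNGAA and an NF-κB-like site GGNNTTTCC, searched on both strands (the gamma-activated site reads the same on both, and matches may overlap). *Cxcl10* (chr5:92348890-92349139, minus strand) and *Gbp5* (chr3:142496684-142496933, plus strand) were higher in Th1 cells, and *Il9* (chr13:56482258-56482507, minus strand) and *Il13* (chr11:53634703-53634952, minus strand) in Th9(IL4+IL-1b) cells.
Cxcl10: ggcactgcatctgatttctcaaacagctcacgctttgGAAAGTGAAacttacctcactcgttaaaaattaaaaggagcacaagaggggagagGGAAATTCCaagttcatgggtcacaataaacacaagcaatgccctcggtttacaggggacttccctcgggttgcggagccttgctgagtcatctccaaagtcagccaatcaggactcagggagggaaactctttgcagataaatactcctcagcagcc
Gbp5: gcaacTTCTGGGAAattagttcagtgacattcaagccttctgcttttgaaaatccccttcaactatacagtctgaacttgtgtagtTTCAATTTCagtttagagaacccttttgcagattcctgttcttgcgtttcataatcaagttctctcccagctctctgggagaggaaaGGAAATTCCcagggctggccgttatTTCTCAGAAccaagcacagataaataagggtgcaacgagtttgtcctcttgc
Il9: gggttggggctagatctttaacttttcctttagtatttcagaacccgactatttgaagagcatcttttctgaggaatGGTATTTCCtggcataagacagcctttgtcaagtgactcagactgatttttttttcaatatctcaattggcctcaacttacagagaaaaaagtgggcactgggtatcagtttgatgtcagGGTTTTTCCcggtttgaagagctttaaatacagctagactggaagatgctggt
Il13: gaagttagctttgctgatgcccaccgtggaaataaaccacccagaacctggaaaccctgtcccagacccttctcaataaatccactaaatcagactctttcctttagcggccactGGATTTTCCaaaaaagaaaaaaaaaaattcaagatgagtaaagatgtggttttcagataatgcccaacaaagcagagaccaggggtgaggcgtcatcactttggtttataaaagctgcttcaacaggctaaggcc
The *Cxcl10* window held 1 response element core, 213 bases before the start, and 1 NF-κB-like site, 158 bases before it. The *Gbp5* window held matches to all 3 motifs, with gamma-activated sites 245 and 52 bases before the start. *Il9* and *Il13* showed NF-κB-like letters alone, at 173 and 53 bases in *Il9* and at 135 in *Il13*. Over the 20615 RefSeq windows of the genes on the array (300 bases each, 50 of them after the start), the response element core was present in 8.04%, the gamma-activated site in 7.89% and the NF-κB-like site in 6.0%. Among the 184 windows of genes at least 2-fold lower in Th9(IL4+IL-1b) cells these shares were 19.0%, 13.6% and 10.9%. Among the 289 windows of genes at least 2-fold higher they were 7.96%, 5.54% and 9.0%. The NF-κB-like site was thus no more frequent among the higher genes than among the lower ones. A match says only that the letters are there, and windows were found for 137 of the 182 lower and 218 of the 289 higher genes.

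The Th1 genes followed *Ifng*. Of 23 matched members 12 were at least 2-fold lower in Th9(IL4+IL-1b) cells and 1 was higher, with a median of -1.02 against -0.02 over all genes. *Tbx21*, which encodes T-bet, was at 10.90 in Th1 and 7.88 in Th9(IL4+IL-1b) cells and at 7.22 to 7.73 in the other arrays. *Il18r1* and *Il18rap*, the chains of the IL-18 receptor, were at 10.44 and 9.24 in Th1 and at 6.58 and 6.70 in Th9(IL4+IL-1b) cells. These receptor chains were high in the Th1 array alone, since the other 3 arrays reached no more than 6.68 and 6.94. *Il12rb2*, the signal-transducing chain of the IL-12 receptor, was at 11.50 in Th1, 9.14 in Th9(IL4+IL-1b), 8.56 in Th2, 8.71 in classic Th9 and 8.48 in Th9(IL4+TGF-b+IL-1b) cells, so that Th9(IL4+IL-1b) cells lay between Th1 cells and the rest. *Cxcr6* and *Cxcr3*, homing receptors of Th1 cells, differed by -1.73 and -1.02, and *Tnf* by -1.09. Some Th1 genes did not part: *Stat4*, which carries the IL-12 signal, was at 10.92 and 11.02, and *Runx3*, a partner of T-bet, at 9.70 and 9.03. The member in the opposite direction was *Ifngr2*, a chain of the IFN-γ receptor, at 8.55 in Th1, 10.04 in Th9(IL4+IL-1b) and 10.08 to 10.30 in the other arrays.

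Type 2 genes went the other way, with 15 of 22 at least 2-fold higher in Th9(IL4+IL-1b) cells, 1 lower and a median of 1.39. *Gata3*, the master regulator of type 2 cells, was at 6.85 in Th1 and 10.40 in Th9(IL4+IL-1b) cells and between 10.28 and 10.50 in the others, an 11.7-fold difference. A second transcript cluster of *Gata3* was at 6.01 and 6.17 and did not share it. *Epas1*, which encodes the hypoxia-inducible factor HIF-2α, was at 6.23 and 10.27, and *Ccr8*, a homing receptor, at 6.95 and 9.56. *Il4* was at 5.19 in Th1 and 7.47 in Th9(IL4+IL-1b) cells, and *Il5* at 4.76 and 6.39 with 4.67 to 5.61 in the other arrays. *Il4* was thus raised in all cultures with added IL-4 (6.97 to 7.06 in the other 3), whereas *Il5* was highest in Th9(IL4+IL-1b) cells. The single lower member was *Zbtb32*, a zinc finger repressor, at 10.11 and 8.82. Of 20 genes linked to Th9 cells, 5 were higher, 2 were lower and the median was 0.55. Besides *Il9* these were the chemokine gene *Ccl17* (4.49 and 9.04), *Ccl22* (9.93 and 11.74), *Egr2* (8.52 and 9.86) and *Ahr*, the aryl hydrocarbon receptor (7.44 and 8.63). The lower 2 were *Etv5*, an ETS factor (10.14 and 7.47, with a second cluster at 5.93 and 5.91), and *Il9r*, the IL-9 receptor (7.70 and 6.42). *Irf4* and *Batf*, factors that act on *Il9*, differed by 0.61 and 0.93 and stayed under 2-fold.

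Several of the genes farthest apart are not cytokine genes. *Akr1c18*, which encodes an enzyme that inactivates progesterone, was at 4.69 in Th1 and between 11.79 and 12.01 in all 4 other arrays, at least 92.2-fold apart in the pair. *Chil3*, a chitinase-like protein of type 2 responses, was at 3.73 and 8.94, and *Nts*, the neuropeptide neurotensin, at 4.50 and 9.80. *Nts* was higher in the arrays with IL-1β (9.80 and 9.38) than in Th2 (7.77) and classic Th9 cells (7.71), while *Chil3* was highest in classic Th9 cells (9.79). *Cyp11a1*, the first enzyme of steroid synthesis, was at 5.90 and 9.48, while its second transcript cluster was at 6.12 and 6.55. *Hpgds*, which makes prostaglandin D2, was at 4.86 and 8.05. *Hamp*, the iron hormone hepcidin, was at 3.11 in Th1, 5.88 in Th9(IL4+IL-1b) and 4.34 in Th9(IL4+TGF-b+IL-1b) cells and at 2.78 and 2.79 in the others. Only its Th9(IL4+IL-1b) value left the range of the olfactory receptors, so its difference can be given as no more than at least 1.41-fold. In the opposite direction *Plac8* was at 11.00 in Th1 and 8.27 in Th9(IL4+IL-1b) cells, and *Furin*, a protease that matures precursor proteins, at 12.50 and 9.91. The remaining ranked genes on that side, *Serpinb5*, *Sema3b*, *Tbkbp1*, *Esm1*, *P2rx3*, *Me1*, *Crabp2* and *Cxcr1*, were lower too. *Serpinb5* and *Esm1*, dim in Th9(IL4+IL-1b) cells, were at least 2.72-fold and 5.52-fold apart, and the others differed by -2.73 to -2.42. *Cyp11a1* is also a gene of mast cells and basophils, of whose 13 listed markers 1 was higher and 1 lower. *Cpa3*, the mast cell carboxypeptidase, was at 7.95 and 8.93 and *Kit* at 8.07 and 6.61, and 6 of the 13 were in the olfactory range in both arrays. Their summed level was 9.90 in Th1 and 10.76 in Th9(IL4+IL-1b) cells, and its part in the *Cyp11a1* values was not tested.

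**Figure D2:**
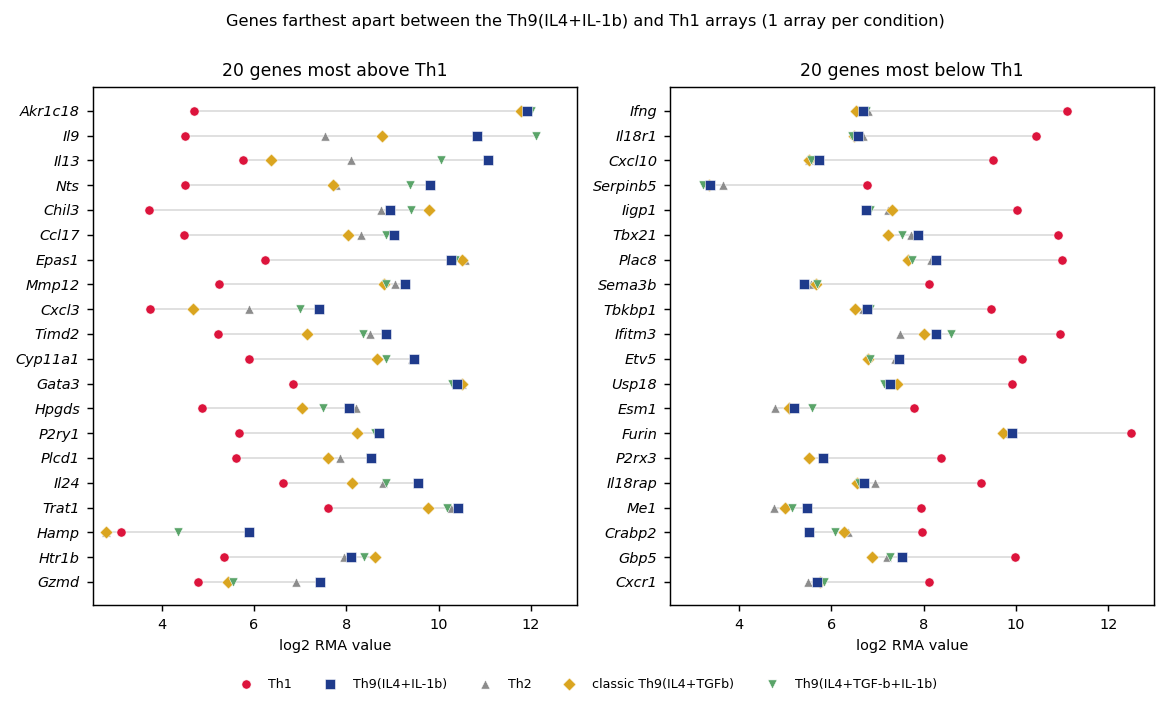
The 20 genes most above and the 20 most below Th1 in Th9(IL4+IL-1b) cells, each row a gene and each mark its log2 RMA value in 1 array. On the left the Th1 mark stands alone at the low end of nearly every row, and on the right alone at the high end, as for *Ifng* at 11.11.

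Interferon-stimulated genes were also lower in part. Of 51 matched genes 21 (41.2%) measured 2-fold or more lower in Th9(IL4+IL-1b) cells, 20 with dim values taken at the olfactory percentile, and 1 was higher. The median was -0.71. *Cxcl10*, a chemokine for CXCR3-bearing cells, was at 9.51 in Th1 and 5.72 in Th9(IL4+IL-1b) cells and at 5.50 to 5.56 in the others. Its relatives *Cxcl9* (6.91 and 5.62) and *Cxcl11* (7.05 and 4.74) differed in the same direction. *Iigp1* and *Igtp*, GTPases that act against intracellular parasites, were at 10.03 and 6.74 and at 12.03 and 10.60. *Gbp5*, *Gbp3*, *Gbp7*, *Gbp10* and *Gbp4*, guanylate-binding proteins, differed by -2.45, -1.80, -1.73, -1.66 and -1.32. *Usp18*, which removes ISG15 from proteins, was at 9.90 and 7.26. *Ifitm3*, a restriction factor of virus entry that ranked among the lowest differences and is not in the list, was at 10.95 and 8.27. *Irf1* and *Irf8*, transcription factors of the interferon response, differed by -1.16 and -1.55. The single higher member was *Ido1*, an enzyme that degrades tryptophan, at 6.45 in Th1, 7.69 in Th9(IL4+IL-1b) and 7.54 in Th9(IL4+TGF-b+IL-1b) cells, with 6.85 in Th2 and 6.14 in classic Th9 cells. An antibody against IFN-γ was in the Th9(IL4+IL-1b) medium and not in the Th1 medium, and this difference cannot be told apart from the cytokines.

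The list did not set Th9(IL4+IL-1b) cells apart from the remaining cultures. The Th1 value was the highest of the 5 arrays in 44 of the 51 genes. In these 44, Th9(IL4+IL-1b) cells came next in 16 and Th2 cells in 20, and over the list Th9(IL4+IL-1b) cells were above Th2 cells in 21 genes and below them in 30. Among all 22184 genes the Th1 value was highest in 5662, with Th9(IL4+IL-1b) cells next in 1504 and Th2 cells in 1228. There Th9(IL4+IL-1b) cells were above Th2 cells in 10806 genes and below them in 11373. The summed level of the list on the log2 scale was 15.79 in Th1, 15.23 in Th9(IL4+IL-1b), 15.26 in Th2 and 15.11 in both cultures with TGF-β. *Isg15*, a ubiquitin-like protein, was at 6.85 in Th1, 6.07 in Th9(IL4+IL-1b) and 5.74 in Th2 cells. *Gbp4* was at 9.95, 8.63 and 8.82 in the same order, and *Iigp1* at 10.03, 6.74 and 7.22. Members thus differed in which of Th9(IL4+IL-1b) and Th2 cells was higher.

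**Figure D3:**
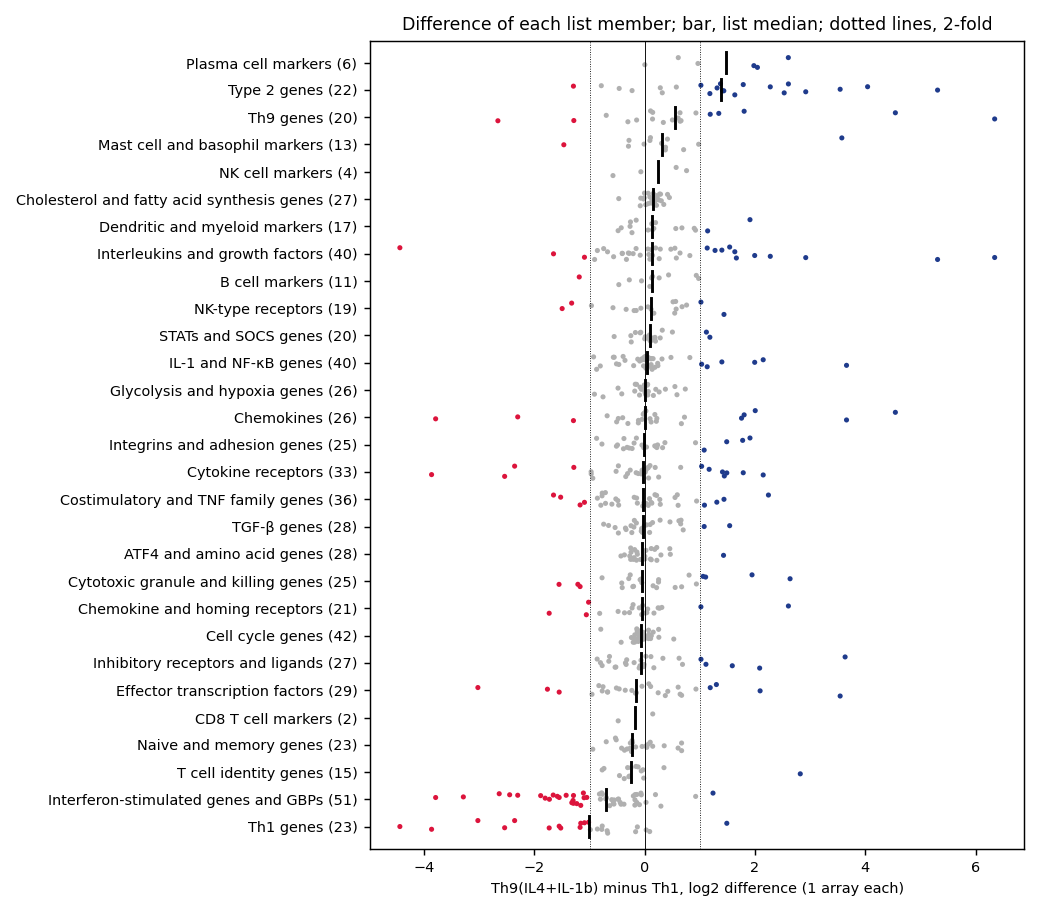
Log2 difference between Th9(IL4+IL-1b) and Th1 cells for each member of 29 gene lists, with the number of matched genes in brackets and the list median as a black bar; blue and red points measured 2-fold or more apart. Th1 genes (median -1.02) and interferon-stimulated genes (-0.71) lie to the left and type 2 genes (1.39) to the right, while most other lists spread around 0.

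IL-1 and NF-κB genes parted less. Of 40 members 6 measured 2-fold or more higher in Th9(IL4+IL-1b) cells, 4 of them with dim values taken at the olfactory percentile, and none was lower. The median was 0.05, and over all genes 1.30% were higher and 0.820% lower. *Cxcl3*, a neutrophil chemokine, was at 3.74 in Th1, 7.40 in Th9(IL4+IL-1b), 5.90 in Th2, 4.68 in classic Th9 and 6.99 in Th9(IL4+TGF-b+IL-1b) cells. *Il1r1*, the IL-1 receptor, was at 5.38 in Th1 and 7.53 in Th9(IL4+IL-1b) cells, and at 7.20 to 7.71 in the others, so that it was low in Th1 cells alone. *Il1r2*, the decoy receptor, was at 7.70 and 8.73, and *Il1b* and *Il1a* were at 4.84 and 6.24 and at 4.90 and 6.03, at least 1.81-fold and 1.56-fold apart. *Nfkb2*, a subunit of NF-κB, was level at 10.42 in both arrays. *Tnip3*, an inhibitor of NF-κB signaling, was at 8.89 in Th1, 8.38 in Th9(IL4+IL-1b) and 8.39 in Th9(IL4+TGF-b+IL-1b) cells, and at 6.87 in Th2 and 6.80 in classic Th9 cells. Th1 cells thus held a high *Tnip3* value without added IL-1β. In 14 of the 40 genes (35%) Th1 and Th9(IL4+IL-1b) cells were both above the other 3 arrays by some margin, against 11.7% of all genes. In 0 of the 40 was that margin 1.5-fold or more.

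Few genes were set apart in both cultures together. Only 2 transcripts were at least 1.5-fold higher in both Th1 and Th9(IL4+IL-1b) cells than in each other array (0.00850% of transcripts and 0.00902% of genes). They were *Ly6i*, of the Ly6 family of surface proteins, at 7.44 in Th1, 6.62 in Th9(IL4+IL-1b), 5.97 in Th2, 5.21 in classic Th9 and 5.53 in Th9(IL4+TGF-b+IL-1b) cells, and the gene model *Gm17767* at 8.13, 7.30, 6.59, 5.04 and 5.93. At least 1.5-fold lower in both were 9 (0.0383% of transcripts and 0.0406% of genes). At 2-fold there were 0 in either direction. By the same rule Th9(IL4+IL-1b) cells and Th2 cells stood together above the rest in 58 transcripts (0.247%) and below it in 4 (0.0170%). With Th9(IL4+TGF-b+IL-1b) cells they did so in 14 (0.0595%) and 3 (0.0128%), and with classic Th9 cells in 0 and 0 (0.00% each). The Th1 pair thus had fewer shared high transcripts than the pairs with Th2 and Th9(IL4+TGF-b+IL-1b) cells, and the most shared low ones of the 4 pairs. The 58 shared with Th2 cells held plasma cell RNA, with *Jchain* (9.63 and 9.30 against at most 7.03), *Mzb1* and many immunoglobulin transcripts. Its part in that count was not tested.

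The shared high genes below that threshold included effector genes. *Ccl3*, a chemokine for macrophages and T cells, was at 9.97 in Th1 and 9.99 in Th9(IL4+IL-1b) cells, at 9.51 in Th2 and at 7.98 and 8.38 in the cultures with TGF-β. *Ccl4*, its neighbour in function, was at 7.02 and 6.51 against at most 6.16. Both values of the pair were highest for each gene. *Csf2*, which encodes GM-CSF, a growth factor of myeloid cells, was at 5.53 in Th1, 7.53 in Th9(IL4+IL-1b), 4.54 in Th2, 4.05 in classic Th9 and 5.13 in Th9(IL4+TGF-b+IL-1b) cells, and Th9(IL4+IL-1b) cells were 3.98-fold above Th1 cells. A second cluster of *Csf2* stayed between 4.81 and 4.91 in all arrays. *Ptgs2*, the inducible cyclooxygenase, was at 6.12 and 6.44 against at most 5.68, and *Cdkn2a*, a cell cycle inhibitor locus, at 7.03 and 6.91 against at most 6.38. *Zbtb32*, *Gca*, *Slc7a3*, *Parp12*, *Ptpn14*, *Gem*, *Il12rb2*, *Rps12-ps24*, *Cdh17* and *Ifi214* completed the 15 largest measured margins, which ran from 0.40 to 0.65. In *Csf2* the other arrays were in the olfactory range and the gap is at least 0.15, and *Ifi214* was too dim for a gap to be given.

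The shared low genes were a mixed set. *Trpm6*, a magnesium channel, was at 4.58 in Th1 and 4.97 in Th9(IL4+IL-1b) cells, both in the olfactory range, and at 5.74 to 6.90 in the others, so that the gap is at least 0.35. *Timp2*, an inhibitor of metalloproteinases, was at 6.57 and 7.05 against 7.79 to 8.65, and *Pros1*, the anticoagulant protein S, at 7.27 and 9.16 against 9.91 to 10.67. The classic Th9 value was the highest for all 3. *Tnfsf13b*, the B cell survival factor BAFF, was at 5.20 in Th1 and 7.44 in Th9(IL4+IL-1b) cells and at 8.73 in Th2, 9.37 in classic Th9 and 8.04 in Th9(IL4+TGF-b+IL-1b) cells. *Lyz2*, a lysozyme of myeloid cells, was at 6.43 and 7.0 against 7.74 to 8.44. It was 1 of 17 dendritic and myeloid markers, of which *Itgax* was higher in Th9(IL4+IL-1b) than in Th1 cells (7.33 against 5.43) and *S100a8* was too dim to compare (5.33 and 4.19), and their summed level on the log2 scale was 9.68 in Th1, 10.05 in Th9(IL4+IL-1b) and 10.03 to 10.13 in the others. Its part in the *Lyz2* values was not tested. *Tgfbr1*, a receptor of TGF-β, was at 6.87 and 7.52 against 8.01 to 8.65, and *Izumo1r*, the folate receptor 4, at 6.96 and 9.15 against 9.62 or more. *Fgf2*, *Galm*, *Rtn4rl1*, *Nrgn*, *Gpr25*, *Dusp10*, *Myo6* and *Il17rb* completed the 15, whose measured margins ran from 0.46 to 0.77, with 0.75 the largest where the pair was above the olfactory range.

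**Figure D4:**
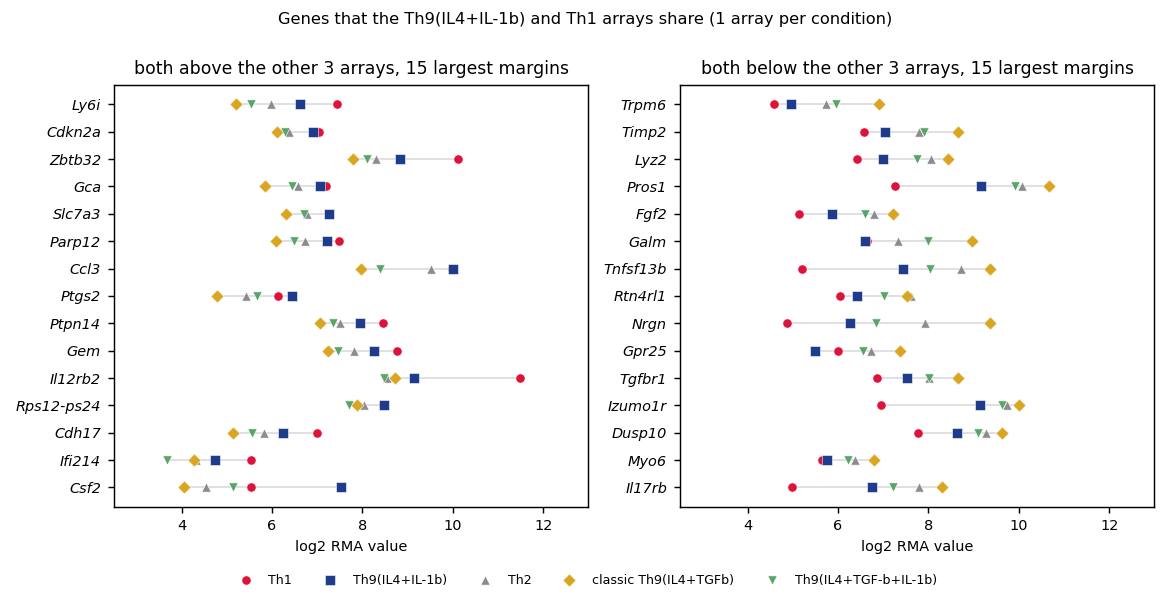
The 15 genes by whose log2 RMA value Th1 and Th9(IL4+IL-1b) cells stood farthest above, and the 15 farthest below, the other 3 arrays; each mark is 1 array. The gap between the pair and the next array is narrow in every row, at most 0.77 as measured (*Trpm6*, where the pair is in the olfactory range), and the pair itself can be far apart, as for *Il12rb2* at 11.50 and 9.14.

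More was shared when Th2 cells were left out of the reference. Th1 and Th9(IL4+IL-1b) cells were both at least 1.5-fold above the 2 cultures with TGF-β in 59 transcripts (0.251%) and below them in 36 (0.153%). Th2 cells, also made without TGF-β, lay at or past the nearer of the pair in 19 of the 59 and in the gap in the other 40. Of the 36, they lay there in 5 in the gap in 25 and level with or past the TGF-β cultures in 6, so most of these transcripts placed Th2 between the pair and the TGF-β cultures. The genes named here from these counts were chosen after their values were seen, apart from those in the lists. *Prdm1*, which encodes the effector factor Blimp-1, was at 9.33 in Th1, 8.65 in Th9(IL4+IL-1b), 8.28 in Th2, 6.95 in classic Th9 and 7.03 in Th9(IL4+TGF-b+IL-1b) cells. *Prf1*, the pore-forming protein perforin, was at 8.54, 8.33 and 8.47 in the arrays without TGF-β and at 7.48 and 7.41 with it. *Havcr2*, which encodes the inhibitory receptor TIM-3, followed the same order at 7.70, 7.61, 7.46, 6.70 and 6.15. *Ccl5* was at 10.07, 9.39, 9.59, 8.52 and 8.56. *Jchain*, *Igh-VS107* and 4 other immunoglobulin transcripts also lay on this side (*Jchain* at 4.68 and 4.89 with TGF-β), so plasma cell RNA moved with these counts. Its part in them was not tested.

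On the low side stood *Cyp1a1*, a target of the aryl hydrocarbon receptor, at 6.86 in Th1, 7.40 in Th9(IL4+IL-1b), 7.48 in Th2, 9.23 in classic Th9 and 9.21 in Th9(IL4+TGF-b+IL-1b) cells. *Ahrr*, the repressor of that receptor, was at 6.78, 6.95, 6.82, 7.90 and 7.56 in the same order. Both genes were highest in the cultures with TGF-β. *Itgae*, the integrin chain CD103, was at 5.52, 6.60, 6.88, 8.40 and 7.27, and *Npas2*, a clock factor, at 6.30, 5.93, 6.66, 8.27 and 7.23. *Itgae* was at the same time 1 of 4 integrin and adhesion genes at least 2-fold higher in Th9(IL4+IL-1b) than in Th1 cells, with *Itgax*, *Itgb3* and *Cd24a*, of 25 in the list.

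**Figure D5:**
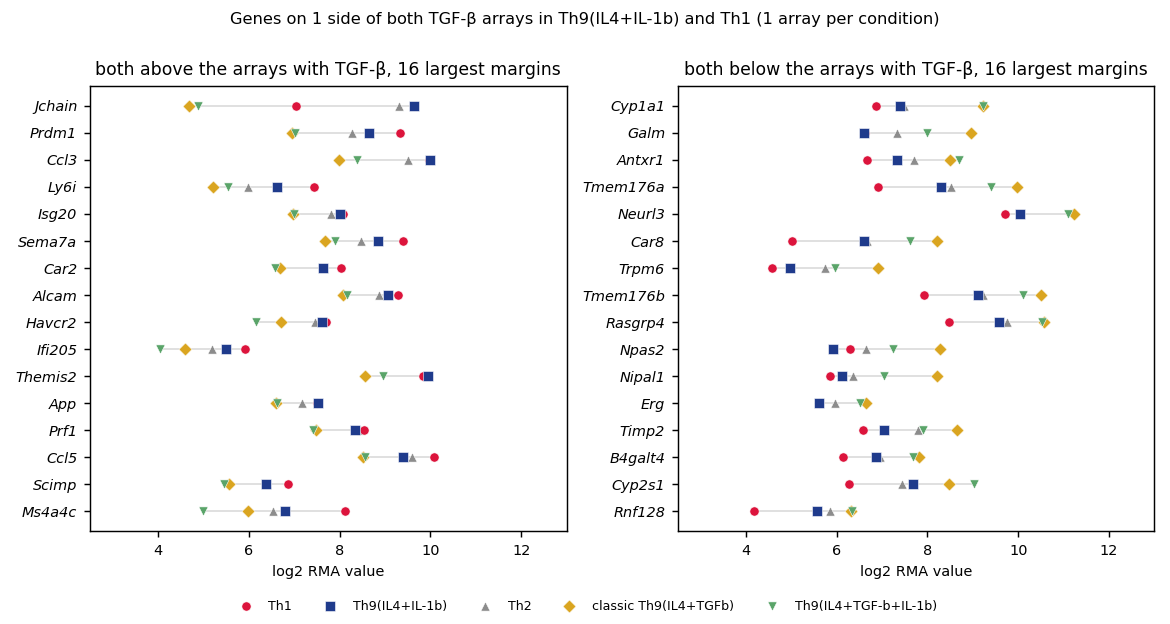
Genes by whose log2 RMA value Th1 and Th9(IL4+IL-1b) cells were both at least 1.5-fold above (left) or below (right) both cultures with TGF-β, the 16 largest margins each, without immunoglobulin segments and gene models; each mark is 1 array. By this rule the TGF-β cultures stand at 1 end, close together for *Prdm1* at 6.95 and 7.03 but apart for *Npas2* at 8.27 and 7.23. Th2 lies in the gap or at or past the nearer of the pair, and in the gap it can be close to a TGF-β culture, as for *Timp2* (7.79 against 7.91).

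Cytotoxic genes were divided between the cultures. Of 25 members 4 measured 2-fold or more higher in Th9(IL4+IL-1b) cells and 3 lower, with a median of -0.05, and 3 were higher once dim values were taken at the olfactory percentile. The higher ones were granzymes: *Gzma* at 9.36 in Th1, 11.31 in Th9(IL4+IL-1b) and 11.33 in Th2 cells, *Gzmd* at 4.79, 7.42 and 6.90, *Gzmc* at 7.16, 8.26 and 8.0, and *Gzmf* at 4.84, 5.90 and 4.64, which is at least 1.43-fold in the pair. Th2 cells matched Th9(IL4+IL-1b) cells in *Gzma* but not in *Gzmf*. The lower ones were *Nkg7*, a granule membrane protein (11.35 and 9.80), *Ctsw*, cathepsin W (9.87 and 8.66), and *Fasl*, the Fas ligand (7.77 and 6.60). *Gzmb*, the main granzyme of killer cells, was at 11.95 and 11.69 and *Srgn*, the granule proteoglycan serglycin, at 12.14 and 12.06. Of the NK-type receptors, 2 of 19 (10.5%) were higher (*Cd226* and *Fcgr3*) and 2 (10.5%) lower, against 1.30% and 0.820% of all genes. *Klrk1*, which encodes NKG2D, was at 8.42 in Th1 and 6.93 in Th9(IL4+IL-1b) cells, and *Klrc1*, which encodes NKG2A, at 7.19 and 5.87. The NK cell markers *Ncr1* and *Klrd1* differed by 0.76 and -0.57, and *Cd8b1* was at 9.32 and 9.47.

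Transcription factors of effector cells were mostly level. Of 29 members 4 were at least 2-fold higher (*Gata3*, *Bhlhe41*, *Vdr* and *Ahr*) and 3 lower (*Tbx21*, *Irf8* and *Jun*), with a median of -0.15. *Bhlhe41* was at 6.22 in Th1, 8.32 in Th9(IL4+IL-1b) and 8.26 in Th2 cells and at 6.56 and 6.54 with TGF-β. The plasma cell marker *Jchain* was also highest in Th9(IL4+IL-1b) and Th2 cells (9.63 and 9.30). The part of plasma cell RNA in the *Bhlhe41* values was not tested. *Bhlhe40*, a relative of *Bhlhe41* that acts on cytokine genes, was at 11.99 and 11.48 against 10.99 to 11.34. *Eomes*, a factor related to T-bet, was at 7.62 in Th1 and 8.29 in Th9(IL4+IL-1b) cells, in contrast to *Tbx21*. *Jun*, an AP-1 subunit, was at 10.23 and 8.47, while *Junb* was at 10.31 and 10.16 and *Batf* at 8.54 and 9.47.

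Among interleukins and growth factors 11 of 40 measured 2-fold or more higher and 3 lower, with a median of 0.13, and 8 were higher with dim values taken at the olfactory percentile. The higher ones beside those above were *Il24* (6.63 and 9.55), *Il2* (4.63 and 6.29, at least 1.87-fold), *Inhba*, a subunit of activin A (5.25 and 6.79), and *Ebi3*, a subunit of IL-27 and IL-35 (8.40 and 9.68). *Ltb*, the lymphotoxin β gene, was lower at 11.48 and 9.82. *Il21*, a helper cytokine, was at 7.23 in Th1, 7.87 in Th9(IL4+IL-1b) and 7.79 in Th9(IL4+TGF-b+IL-1b) cells and at 5.74 in Th2 and 5.14 in classic Th9 cells. It was therefore shared by Th1 cells and both cultures with IL-1β. *Il10* was at 8.75 and 9.32. Of 33 cytokine receptors 7 (21.2%) were higher, among them *Il4ra* (10.25 and 11.66), *Il6ra* (7.49 and 8.93) and *Csf2rb* (6.14 and 7.31), and 4 (12.1%) were lower. The shares of all genes were 1.30% and 0.820%, and the median of the receptors was -0.02.

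Chemokines parted in both directions, with 5 of 26 (19.2%) higher and 3 (11.5%) lower, against 1.30% and 0.820% of all genes. Their median was 0.005. The higher ones were *Ccl17*, *Cxcl3*, *Ccl9*, *Ccl22* and *Ccl24*, and the lower ones were the CXCR3 ligands *Cxcl9*, *Cxcl10* and *Cxcl11*. *Ccl17* and *Ccl22* act on CCR4, and *Ccr4* itself was at 9.70 in Th1 and 10.72 in Th9(IL4+IL-1b) cells. *Cxcr3* was at 8.23 and 7.21. Ligands and receptors of these pathways thus moved in the same direction in the pair. *Ccr6* was lower at 8.73 and 7.67, and *Ccr7*, the lymph node homing receptor, was level at 10.87 and 10.91.

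Of 27 inhibitory receptors and ligands 5 (18.5%) were higher and none lower, against 1.30% and 0.820% of all genes, and the median was -0.07. With so few of all genes lower, the lack of lower members does not set the list apart. *Timd2*, a member of the TIM family, was at 5.22 and 8.85, *Pdcd1lg2*, the PD-1 ligand PD-L2, at 6.49 and 8.58, and *Tigit* at 7.60 and 8.62. *Pdcd1*, which encodes PD-1, was at 8.09 and 7.99, and *Ctla4* at 8.92 and 8.57 against 9.77 in classic Th9 cells. *Lag3* was at 8.99 and 8.13. Th1 and Th9(IL4+IL-1b) cells therefore differed more in the ligand *Pdcd1lg2* than in its receptor *Pdcd1*. In the costimulatory and TNF families 4 of 36 (11.1%) were higher, with *Tnfsf13b*, *Cd226*, *Tnfsf8* and *Tnfrsf8*, and 4 (11.1%) lower, with *Ltb*, *Cd40lg* (9.48 and 7.96), *Fasl* and *Tnf*. Their median was -0.02.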

How the data were processed

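Affymetrix Mouse Gene 2.0 ST arrays, 1 per condition, measured the RNA of 5 T helper cultures. The authors summarized probes by RMA in Affymetrix Expression Console and deposited log2 values, which were used as they are. Program versions and genome build: not given in the sources used here. Of 41345 transcript clusters, 23525 carry 1 gene symbol in the platform annotation, 1816 carry several and 16004 are unnamed here. The Entrez IDs of 23328 were found in the RefSeq table. A gene with several clusters was taken as the one with the highest mean, which gave 22184 genes.

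The difference was the Th9(IL4+IL-1b) value less the Th1 value. Transcripts were counted at 2-fold and, for traits shared by the pair against the other 3 arrays, at 1.5-fold. No test was run, and the number of arrays limits the precision. The 30 gene lists (1 without a match) are described by counts and medians. The members and lists were chosen with earlier results of these data known.

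Named genes are the 20 largest and 20 smallest differences, the 15 largest margins by which both arrays lay above or below the other 3, and, in each list, members with the largest differences or shared margins and defining members. The rankings leave out gene models, antigen receptor segments and genes whose higher ranked value was below 5.43, the median of all values. Listed genes with no symbol of their own in the annotation used were not analysed here. Promoter windows came from the RefSeq table (GRCm38.p6), and every window of a gene was counted.

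The alternatives were other thresholds, 4 other scalings, log2(value + 16) on the linear scale, filters on dim transcripts, dim values taken at the olfactory percentile, other units, and leaving out arrays or B lineage transcripts. The counting was tested on simulated data of 23525 transcripts with noise of SD 0.1 per array. All 100 transcripts changed 4-fold were recovered for each of the 4 counts, and 0 unchanged ones were counted. The measured olfactory differences spread more widely (SD 0.299), and only 4-fold changes were simulated. The simulation thus checks that the counting rules work and gives no error rate for these data. Python 3.11.15, numpy 2.4.6, pandas 2.3.3 and matplotlib 3.10.9 were used.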

Additional observations from a re-analysis of the deposited data

How the results depend on the processing

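At the 2-fold threshold 299 transcripts were higher and 186 lower in Th9(IL4+IL-1b) than in Th1 cells. These counts were 918 and 712 at 1.5-fold, 58 and 35 at 4-fold, and 1341 and 311 over all transcript clusters, most of the added ones unnamed here. Under the other alternatives they ran from 227 to 326 and from 136 to 240. Taking dim values at the olfactory percentile, an alternative chosen after seeing the data, gave 247 and 159, and for the counts shared by the pair 2 and 8. The counts shared by the pair were small and moved more. Transcripts higher in both (2) were 60 at a margin of 25%, 0 at 2-fold, 15 with centring on the T cell identity genes, 1 with a second quantile normalization, 1 with a pseudocount of 16 and 31 over all clusters. Transcripts lower in both (9) were 67, 0, 3, 10, 5 and 20 under the same settings. Leaving out 1 of the other arrays gave 3 to 59 higher and 11 to 36 lower, with the largest counts without Th2 cells and 16 and 26 without Th9(IL4+TGF-b+IL-1b) cells. The cause was not tested for the shared counts under other scalings. Of 232 values of list medians under alternatives 230 moved by less than the olfactory SD; the exceptions were the mean in place of the median for interleukins (0.47) and the plasma cell markers above the olfactory range (1.98). No gene difference of 1.5-fold or more in the lists or rankings changed sign under the 5 scaling alternatives. These left the median difference between -0.13 and 0.02, so such a change of sign could hardly occur and its absence says little. Of 130 gene differences that were at least 2-fold, 14 fell below 2-fold in 1 or more of them. No paired analysis was possible because each condition has 1 array.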

Other observations

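Programs of growth and metabolism were close to level between Th9(IL4+IL-1b) and Th1 cells. None of 42 cell cycle genes, 26 glycolysis and hypoxia genes, 27 cholesterol and fatty acid synthesis genes or 23 naive and memory genes was 2-fold apart, with list medians of -0.06, 0.01, 0.15 and -0.22. Of all 22184 genes 21713 were also under 2-fold apart, so these counts do not set the lists apart from other genes. *Hk2*, the inducible hexokinase, was at 10.31 in Th1 and 9.40 in Th9(IL4+IL-1b) cells and at 8.98 to 9.19 in the others, and *Hif1a* was at 10.65 and 9.89, while its relative *Epas1* lay in the opposite direction. *Ccnd3*, cyclin D3, was at 11.07 and 10.27, and *Il7r*, the survival receptor for IL-7, at 10.64 and 9.70.

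The 28 ATF4 and amino acid genes were nearly level in the pair (median -0.05, 1 higher), and in 12 of them (42.9%) both arrays were above the other 3 by some margin, against 11.7% of all genes. *Slc7a3*, a carrier of cationic amino acids, was at 7.27 in Th1 and 7.25 in Th9(IL4+IL-1b) cells and at 6.30 to 6.79 in the others. *Asns*, asparagine synthetase, was at 9.89 and 10.08 against 9.15 to 9.87. The gene higher in Th9(IL4+IL-1b) cells was *Cth*, which makes cysteine, at 7.17 in Th1 and 8.60 in Th9(IL4+IL-1b) cells. In the opposite direction, 9 of 27 cholesterol and fatty acid synthesis genes (33.3%) were lower in both arrays than in the other 3, against 2670 of all 22184 genes (12%), among them *Dhcr7* (9.51 and 9.80 against 10.02 to 10.13) and *Nsdhl* (9.85 and 10.20 against 10.43 to 10.53). In the list of 28 TGF-β genes *Inhba* and *Itgae* were higher in Th9(IL4+IL-1b) cells, both by over 2-fold. Of 20 STAT and SOCS genes, *Socs2* (10.06 and 11.24) and *Jak2* (9.64 and 10.76) were higher and none was lower. Over all genes 1.30% were higher and 0.820% lower, so the lack of lower members does not set this list apart.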
